A study of Mus musculus with 8 samples.

Results

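The brakes and accelerators of the G1 phase of the cell cycle were followed in cultured mouse fibro-adipogenic progenitors (FAPs), muscle-resident stromal cells able to turn into adipocytes and fibroblasts, with and without melatonin. The genes are those of 10 named proteins: the CDK inhibitors of the Cip/Kip family (Cdkn1a, Cdkn1b and Cdkn1c) and of the INK4 family (Cdkn2a, Cdkn2b and Cdkn2c), the D-type cyclins (Ccnd1, Ccnd2 and Ccnd3), and Mdm2. They were picked by symbol, and each symbol matched 1 of the 20781 genes in the deposited counts. Both groups were FAPs of wild-type male C57BL/6 mice (C57BL/6J in the series text) taken from 3 uninjured hindlimb muscles (tibialis anterior, gastrocnemius and quadriceps). After 48 h the cells were given vehicle (4 libraries) or melatonin (4 libraries) for 24 h. The dose of melatonin and the age of the mice were not stated in the labels, and the extraction protocol in the labels names another muscle, longissimus dorsi. The 4 libraries of a group are described as biological replicates, and whether each came from 1 animal or from a pool is not given, so p-values measure the spread between these libraries.

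D-type cyclins bind the kinases CDK4 and CDK6 when growth factors are present and start the phosphorylation of the retinoblastoma protein, which frees E2F factors to switch on S phase genes. INK4 proteins bind CDK4 and CDK6 and keep cyclin D away from them, while Cip/Kip proteins bind cyclin-CDK complexes and block mainly those of CDK2. Cdkn1a (p21) is the textbook target of the tumour suppressor p53, and Mdm2, another p53 target, encodes the ubiquitin ligase that degrades p53.

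Promoter sequence is shown first for the genes that rose or fell and for which RefSeq starts were at hand (GRCm38.p6, the assembly also called mm10). Of the 10 genes, 7 matched that table, with 11 starts. Each window is the 250 bases before a start, written along the gene's own strand. Capitals mark every match, on either strand, to the GC box (GGGCGG), the E-box (CACGTG), AP-1 (TGANTCA), the cAMP response element CRE (TGACGTCA), FoxO (GTAAACA), E2F (TTTNNCGC), the TATA box (TATAAA) or the p53 decamer, the degenerate element that p53 binds in pairs. The first pair is Cdkn1a, shown at both of its starts because they differ in their matches (chr17:29090729-29090978 and chr17:29093519-29093768, plus strand).
Cdkn1a, distal start: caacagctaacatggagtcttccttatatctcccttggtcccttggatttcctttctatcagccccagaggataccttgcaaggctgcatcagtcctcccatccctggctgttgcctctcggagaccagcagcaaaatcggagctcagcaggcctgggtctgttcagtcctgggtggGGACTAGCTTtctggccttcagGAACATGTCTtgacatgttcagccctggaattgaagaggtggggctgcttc
Cdkn1a, proximal start: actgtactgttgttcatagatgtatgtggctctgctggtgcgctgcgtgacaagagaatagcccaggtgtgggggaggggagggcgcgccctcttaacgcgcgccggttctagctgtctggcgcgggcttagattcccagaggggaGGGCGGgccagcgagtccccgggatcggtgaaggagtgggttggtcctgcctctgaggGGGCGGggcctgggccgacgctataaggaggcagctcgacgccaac
The starts lie 2790 bases apart. The distal window held 2 p53 decamers, the nearer one 51 to 42 bases before the start, and the proximal window held 2 GC boxes and no p53 decamer. A p53 decamer was found in 7.13% of 32851 mouse windows of this length and a GC box in 32.7%. The E-box, AP-1 and TATA box letters, found in 6.02%, 6.75% and 12.4% of windows, were in none of the 5 windows shown here.

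Mdm2 (chr10:117710759-117711008, minus strand) is shown as the other p53 target that fell, and Cdkn2b (chr4:89311033-89311282, minus strand) and Cdkn2c (chr4:109666757-109667006, minus strand) as the INK4 genes that rose.
Mdm2: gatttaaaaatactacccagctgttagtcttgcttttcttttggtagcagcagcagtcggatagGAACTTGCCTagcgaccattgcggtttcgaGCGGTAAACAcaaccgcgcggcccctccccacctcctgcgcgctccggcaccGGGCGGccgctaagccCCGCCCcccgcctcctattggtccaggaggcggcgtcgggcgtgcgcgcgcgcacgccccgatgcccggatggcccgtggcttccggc
Cdkn2b: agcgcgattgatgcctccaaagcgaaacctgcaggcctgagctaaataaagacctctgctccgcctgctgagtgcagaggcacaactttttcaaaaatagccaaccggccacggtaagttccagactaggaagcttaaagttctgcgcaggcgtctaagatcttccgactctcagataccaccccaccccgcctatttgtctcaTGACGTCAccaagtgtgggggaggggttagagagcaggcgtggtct
Cdkn2c: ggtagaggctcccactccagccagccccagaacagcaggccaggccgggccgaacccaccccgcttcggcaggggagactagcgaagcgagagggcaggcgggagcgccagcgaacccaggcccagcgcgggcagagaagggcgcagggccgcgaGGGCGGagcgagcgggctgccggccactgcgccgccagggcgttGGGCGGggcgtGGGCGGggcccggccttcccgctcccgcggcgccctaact
Mdm2 held 1 p53 decamer, 2 GC boxes, and 1 FoxO and 1 E2F match that overlap each other. FoxO and E2F matches were found in 3.17% and 4.28% of windows. Cdkn2b held 1 CRE, 46 to 39 bases before the start, a match found in 1.55% of windows, and no GC box. Cdkn2c, shown at the more upstream of its 2 starts, held 3 GC boxes. The window of its other start, not shown, held no match to any of these elements. The p53 decamer was thus in the Mdm2 window and at 1 of the 2 Cdkn1a starts, and the GC box was in windows of genes that fell (Cdkn1a, Mdm2) and of one that rose (Cdkn2c). A match describes letters and not a bound site, and a window without one says nothing about the factor.

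The cultures held the transcripts that define FAPs: Pdgfra and Ly6a, surface markers of these cells, were at a mean of 570 and 336 CPM (normalised read counts) with vehicle and 465 and 224 CPM with melatonin. CPM are counts scaled by each library's total and its TMM factor. The summed level of 10 FAP markers, 6 of them lower, was 26144 to 31043 CPM with vehicle and 12597 to 14606 CPM with melatonin. Most of that sum was collagen, Col1a1 (13770 and 6658 CPM) and Col3a1 (12415 and 5741 CPM), and Pdgfra, Cd34, Thy1 and Pi16 did not pass the test. Totals ran from 35584931 to 52401153 counts, of which mitochondrial genes took 1.05% to 1.3% with vehicle and 2.09% to 2.44% with melatonin. Summed over each marker list, macrophage and leukocyte genes (11 of 12 tested, 4 higher and 2 lower) were at 525 to 795 CPM with vehicle and 351 to 656 with melatonin. Adipocyte genes (5 of 6 tested, 4 higher) went from 103 to 108 up to 637 to 804 CPM. Within the macrophage list C1qa, C1qb, C1qc and Mrc1 rose (log2 fold changes of 0.98 to 1.28) and Csf1r (-0.76) and Cd14 (-1.13) fell, while Ptprc (mean of 3.20 and 1.90 CPM) and Adgre1 (61.5 and 50.7 CPM) did not pass. Endothelial genes were at 30.2 to 37.6 and 48.8 to 56.8 CPM, but of these 6 genes only Tek passed (mean of 17.1 and 35.3 CPM). Pecam1, Cdh5, Kdr, Emcn and Cldn5 did not pass. Myoblast genes (Pax7 and Myf5 had no row in the counts) were at 69.6 to 88.1 and 49.9 to 132 CPM, and only Itga7 passed (0.38). Mural genes were at 101 to 133 and 92.4 to 135 CPM. Of these, Rgs5 (mean of 2.49 and 0.87 CPM) fell (-1.51), Kcnj8 (0.32 and 0.94 CPM) rose (1.56) and 4 did not pass. Schwann cell genes were at 16.6 to 18.2 and 18.2 to 21.9 CPM, and only Sox10 passed (0.76). Melatonin replicate 4 stood apart on the second principal component (54.4, against -25.5 to -18.5 for the other melatonin libraries). The part of these differences in the results below was not tested.

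With melatonin, the INK4 genes Cdkn2b and Cdkn2c and the Cip/Kip gene Cdkn1c rose, by 1.58-fold, 1.83-fold and 2.13-fold. Cdkn1a, Ccnd1 and Mdm2 fell, by factors of 1.54, 2.02 and 1.21. Cdkn1b, Cdkn2a, Ccnd2 and Ccnd3 did not pass the test. All 10 genes were abundant enough to be tested, and 3 rose and 3 fell by edgeR's quasi-likelihood test at a Benjamini-Hochberg adjusted p under 0.05. Over all 16565 genes tested, 36.5% passed in either direction, 18.1% higher and 18.5% lower. The 3 of 10 in each direction stand above these shares, but the list holds only 10 genes. It was also chosen with earlier results of these data known, so the excess is no independent support. The groups did not overlap for the same 6 genes, against 37.7% of all genes. The median log2 fold change (melatonin over vehicle) was 0.04 over the 10 genes and 0.01 over all genes. In RNA from a whole culture, more cells that express a gene and more RNA per cell cannot be told apart.

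The scaling of the libraries bears on the smallest of these differences. Scaling by library totals alone, in place of TMM, moves the median over all genes to 0.17 (log2 fold change) and the share of higher genes among those called from 49.4% to 69.5%. With it Mdm2 was no longer called (-0.12, edgeR adjusted p = 0.19), Ccnd2 was called higher (0.30, edgeR adjusted p = 0.0059), and Cdkn2a changed sign (0.10, edgeR adjusted p = 0.46). The other 5 called genes among the 10 kept their direction and call.

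**Figure D1:**
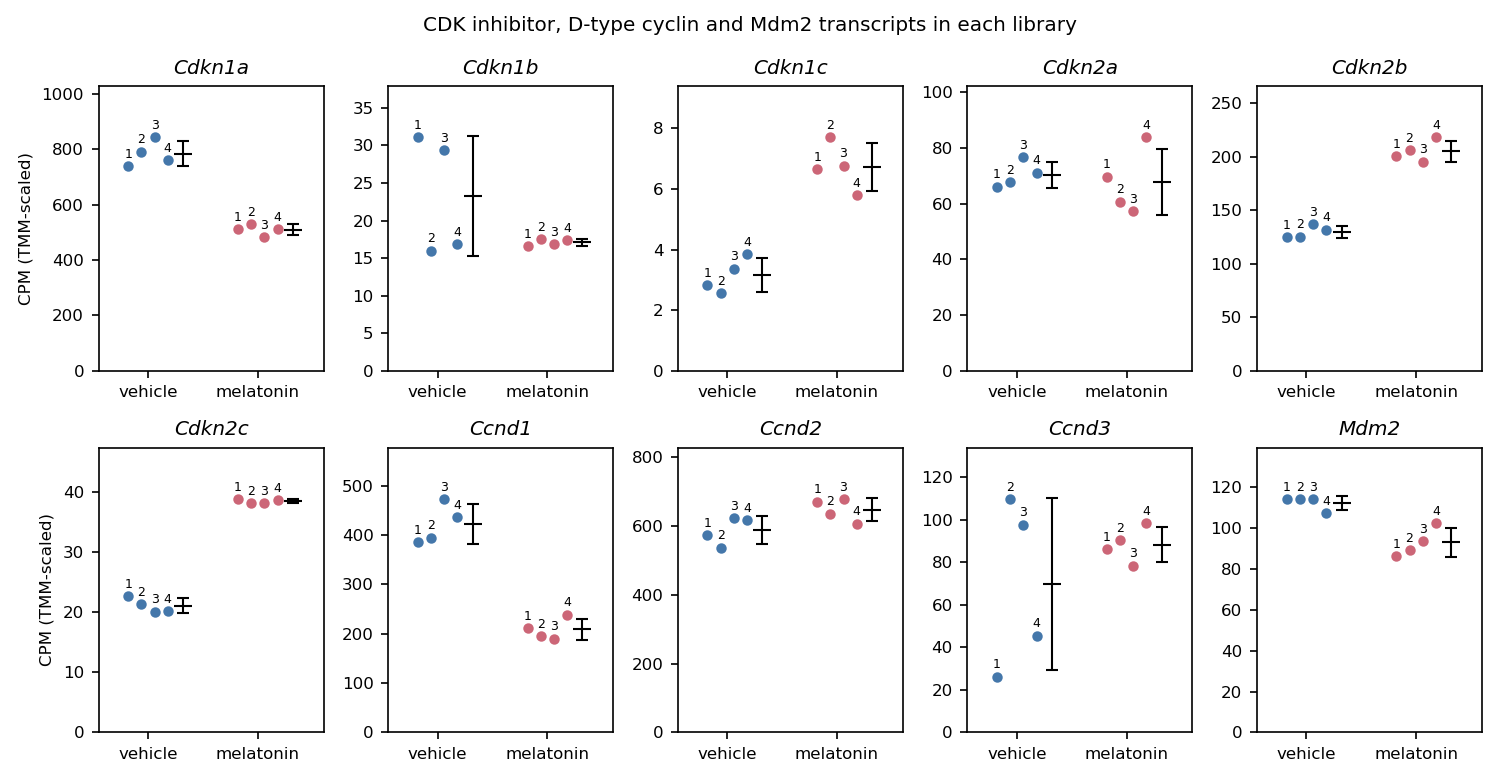
Level of each gene in CPM (vertical axes, each from 0) in the 4 vehicle and 4 melatonin libraries, numbered by replicate, with the mean and SD beside them. The groups stand apart for Cdkn1a, Cdkn1c, Cdkn2b, Cdkn2c, Ccnd1 and Mdm2, and the vehicle libraries spread widely for Cdkn1b (16.0 to 31.1 CPM) and Ccnd3 (26.3 to 109.9 CPM).

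Cdkn1a (ENSMUSG00000023067, chromosome 17, 29090976 to 29100727, plus strand of GRCm38), whose product p21 stops cyclin-CDK complexes and is induced by p53 among other signals, was the most abundant inhibitor transcript with vehicle. It was at 738, 791, 842 and 761 CPM in vehicle replicates 1 to 4 and at 512, 529, 483 and 511 CPM in melatonin replicates 1 to 4. Every melatonin library lay below every vehicle library. The log2 fold change was -0.62 ± 0.064 (standard error, n = 4 per group, edgeR adjusted p = 5.8e-05), and it was -0.65 to -0.58 with any 1 library left out. Of the 3553 exon bases of Cdkn1a, 273 are shared with AC167363.2, a gene on the other strand that has no row in the counts. The part of AC167363.2 in the counts of Cdkn1a was not tested.

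Cdkn1b (ENSMUSG00000003031, chromosome 6, 134920401 to 134925513, plus strand) encodes p27, the inhibitor linked to quiescence and controlled largely by degradation of the protein. Its vehicle libraries formed 2 levels, 31.1 and 29.3 CPM in replicates 1 and 3 against 16.0 and 16.8 CPM in replicates 2 and 4. The melatonin libraries lay at 16.6, 17.5, 16.9 and 17.4 CPM, close to the lower vehicle level. The highest vehicle library was 1.94 times the lowest, and 306 of the 9268 genes with a mean of at least 10 CPM, Cdkn1b included, had a ratio that large. The log2 fold change of -0.45 ± 0.21 did not pass (edgeR adjusted p = 0.13). It was -0.28 without vehicle replicate 1 and -0.32 without vehicle replicate 3, it passed without vehicle replicate 2 (-0.59, edgeR adjusted p = 0.040), and the adjusted p ranged from 0.040 to 0.33 over 17 alternatives.

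Cdkn1c (ENSMUSG00000037664, chromosome 7, 143458339 to 143461050, minus strand) encodes p57, the inhibitor made from an imprinted, maternally expressed locus. It was the scarcest of the 10 transcripts, at 2.84, 2.57, 3.38 and 3.85 CPM with vehicle and 6.66, 7.70, 6.78 and 5.79 CPM with melatonin. The groups did not overlap, and the difference on the log2 scale was 1.09 ± 0.15 (edgeR adjusted p = 0.00040). The smallest of its counts, 111 in vehicle replicate 2, has an exact 95% Poisson interval of 91.3 to 134, which covers counting error only. Of its 2039 exon bases, 625 are shared with Gm44732, a gene on the other strand that has no row in the counts. The part of Gm44732 in the counts of Cdkn1c was not tested.

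Among the INK4 genes, Cdkn2b (ENSMUSG00000073802, chromosome 4, 89306299 to 89311039, minus strand), which encodes p15 and is a known target of TGF-beta signalling, was at 125, 125, 137 and 132 CPM with vehicle. With melatonin it was at 201, 206, 195 and 218 CPM. The lowest melatonin library stood well above the highest vehicle library, with a log2 fold change of 0.66 ± 0.061 (edgeR adjusted p = 3.1e-05).

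Cdkn2c (ENSMUSG00000028551, chromosome 4, 109660876 to 109667189, minus strand), which encodes p18, was at 22.7, 21.3, 20.1 and 20.2 CPM with vehicle and at 38.8, 38.2, 38.1 and 38.7 CPM with melatonin. It had the smallest p of the 10 genes (log2 fold change 0.87 ± 0.067, edgeR adjusted p = 1.0e-05). The melatonin libraries differed from each other by a factor of only 1.02. Of 9268 genes with a mean of at least 10 CPM, 99.9% had a larger SD of log2 CPM among the melatonin libraries. At its 1441 to 2043 counts per melatonin library counting error remains, and how much of this closeness is luck was not tested.

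Cdkn2a (ENSMUSG00000044303, chromosome 4, 89274471 to 89294653, minus strand) encodes both p16 and, from a separate start and in another reading frame, ARF, the protein that binds Mdm2. The RefSeq starts lie 12427 bases apart, and a count per gene does not separate the products. Vehicle libraries were at 66.1, 67.7, 76.6 and 71.1 CPM and melatonin libraries at 69.6, 60.7, 57.3 and 83.7 CPM. The melatonin values surrounded the vehicle values, with replicate 4 highest. The log2 fold change of -0.05 ± 0.11 did not pass (edgeR adjusted p = 0.75), and it was -0.16 without melatonin replicate 4 (edgeR adjusted p = 0.14), 0.0061 without melatonin replicate 2 (edgeR adjusted p = 0.98) and 0.034 without melatonin replicate 3 (edgeR adjusted p = 0.84).

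Of the D-type cyclins, Ccnd1 (ENSMUSG00000070348, chromosome 7, 144929931 to 144939925, minus strand), the member most directly induced by mitogens, was at 386, 394, 473 and 437 CPM with vehicle. It was at 212, 195, 190 and 238 CPM with melatonin. The highest melatonin library was far below the lowest vehicle library, and the log2 fold change was -1.02 ± 0.094 (edgeR adjusted p = 3.1e-05). The exons of Ccnd1 share 1100 bases with those of a gene on the other strand, listed as LTO1, which did not pass the test (log2 fold change -0.03, edgeR adjusted p = 0.90) and whose highest library was at 16.2 CPM.

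Ccnd2 (ENSMUSG00000000184, chromosome 6, 127125162 to 127152193, minus strand), the cyclin D2 gene, was at 573, 536, 622 and 617 CPM with vehicle and at 670, 635, 678 and 606 CPM with melatonin. The groups overlapped, since melatonin replicate 4 lay below vehicle replicates 3 and 4. The log2 fold change of 0.14 ± 0.070 did not pass (edgeR adjusted p = 0.15). Without melatonin replicate 4 it was 0.18 and passed narrowly (edgeR adjusted p = 0.0496), with adjusted p from 0.0059 to 0.34 over 17 alternatives. The exons of Ccnd2 share 372 bases with Gm43126 and 368 with 9330179D12Rik, both on the other strand. Their highest libraries held 15 and 26 counts.

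Ccnd3 (ENSMUSG00000034165, chromosome 17, 47505051 to 47599691, plus strand), the cyclin D3 gene, was at 26.3, 109.9, 97.7 and 45.5 CPM in vehicle replicates 1 to 4. The melatonin libraries were at 86.2, 90.3, 78.5 and 98.6 CPM. Vehicle replicates 1 and 4 were low and replicates 2 and 3 were high, which is a different pairing from that of Cdkn1b. The highest vehicle library was 4.18 times the lowest, and 57 of the 9268 genes with a mean of at least 10 CPM, Ccnd3 included, had a ratio that large. The log2 fold change of 0.34 ± 0.42 did not pass (edgeR adjusted p = 0.58), and it ran from 0.07 without vehicle replicate 1 to 0.65 without vehicle replicate 2. Ccnd3 shares 361 exon bases with Bysl on the other strand, which was at 35.5 to 42.0 CPM with vehicle and 38.4 to 43.6 CPM with melatonin.

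Mdm2 (ENSMUSG00000020184, chromosome 10, 117688875 to 117710758, minus strand) was at 114.2, 114.1, 113.9 and 107.3 CPM with vehicle and at 86.3, 89.2, 93.7 and 102.4 CPM with melatonin. The groups did not overlap, and melatonin replicate 4 came closest to the vehicle libraries. On the log2 scale the change was -0.27 ± 0.067 (edgeR adjusted p = 0.0096). Its size was the least of the called genes, and it held with any 1 library left out (edgeR adjusted p = 0.0014 to 0.041).

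**Figure D2:**
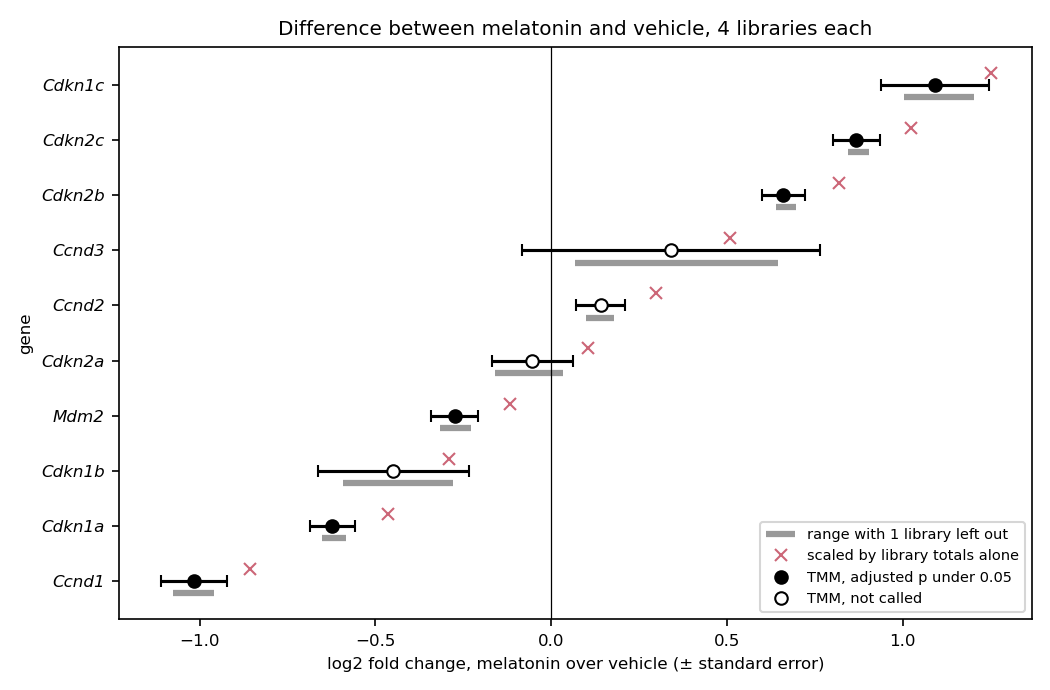
Log2 fold change of melatonin over vehicle for each gene (points with standard error, filled where the edgeR adjusted p was under 0.05), with the range when 1 library is left out (grey bars) and the value scaled by library totals alone (crosses). Ccnd1 lies lowest at -1.02 and Cdkn1c highest at 1.09, the bar of Cdkn2a spans 0, and the cross of Cdkn2a lies on the other side of 0 from its point.

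Levels of different genes can be set against each other only per length, here as mean CPM per kilobase of all annotated exons. With vehicle Cdkn1a led at 220 ± 12.7 (SD, n = 4), followed by Cdkn2b (93.4 ± 4.09) and Ccnd1 (89.7 ± 8.59), whose libraries overlapped. Ccnd2 (62.4 ± 4.29) and Cdkn2a (60.1 ± 3.98) overlapped as well, and Mdm2 came next at 22.1 ± 0.664. Ccnd3 (7.96 ± 4.59) overlapped with both Cdkn2c (7.84 ± 0.45) and Cdkn1b (5.12 ± 1.76), and Cdkn1c was lowest at 1.55 ± 0.28. With melatonin Cdkn2b (148 ± 7.04) and Cdkn1a (143 ± 5.44) led, with overlapping libraries. Ccnd2 (68.8 ± 3.53) overlapped with Cdkn2a (57.9 ± 10.1), and Cdkn2a with Ccnd1 (44.3 ± 4.59). Below them stood Mdm2 (18.3 ± 1.38), Cdkn2c (14.3 ± 0.131) and Ccnd3 (10.1 ± 0.954), each apart from the next, and then Cdkn1b (3.75 ± 0.0927) and Cdkn1c (3.30 ± 0.383), which overlapped. Per kilobase of the longest coding sequence the order changed: Cdkn1a stayed ahead of Cdkn2b in both groups (1642 against 333 with vehicle, 1067 against 526 with melatonin), and Ccnd2 stood above Ccnd1 in both.

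A share within a family uses no scaling factor between libraries. By counts per exon length, Ccnd1 made up 54.6% to 56.7% of the D-type cyclin transcripts of each vehicle library and 33.3% to 40.1% of each melatonin library. Ccnd2 went from 37.2% to 41.8% with vehicle to 51.0% to 59.4% with melatonin, and Ccnd3 from 2.06% to 8.17% to 7.36% to 8.90%. The ratio of Ccnd2 to Ccnd1 per exon length was 0.658 to 0.743 with vehicle and 1.27 to 1.79 with melatonin. By coding length Ccnd2 led in every library, at a mean of 55.0% with vehicle and 68.9% with melatonin, so which cyclin led with vehicle depends on the length used while the shift toward Ccnd2 does not.

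In the INK4 family, Cdkn2b went from 57.5% to 58.2% of the transcripts per exon length to 64.6% to 69.2%, and Cdkn2a went from 36.4% to 38.2% down to 24.0% to 29.4%. Cdkn2c held 4.37% to 5.46% with vehicle and 5.93% to 6.97% with melatonin. In the Cip/Kip family Cdkn1a held nearly all transcripts in both groups, 96.2% to 97.9% with vehicle and 95.1% to 95.6% with melatonin, while Cdkn1c went from 0.55% to 0.86% up to 1.89% to 2.41%. The Cdkn1a groups overlapped when raw counts or coding length were used, and the Cdkn1c groups did not on any scale. The summed level of the 3 Cip/Kip genes per kilobase of exon was 216 to 245 CPM with vehicle and 143 to 157 with melatonin. That of the 3 INK4 genes was 155 to 171 and 204 to 243, and that of the D-type cyclins 146 to 178 and 119 to 126. These sums have no test of their own.

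**Figure D3:**
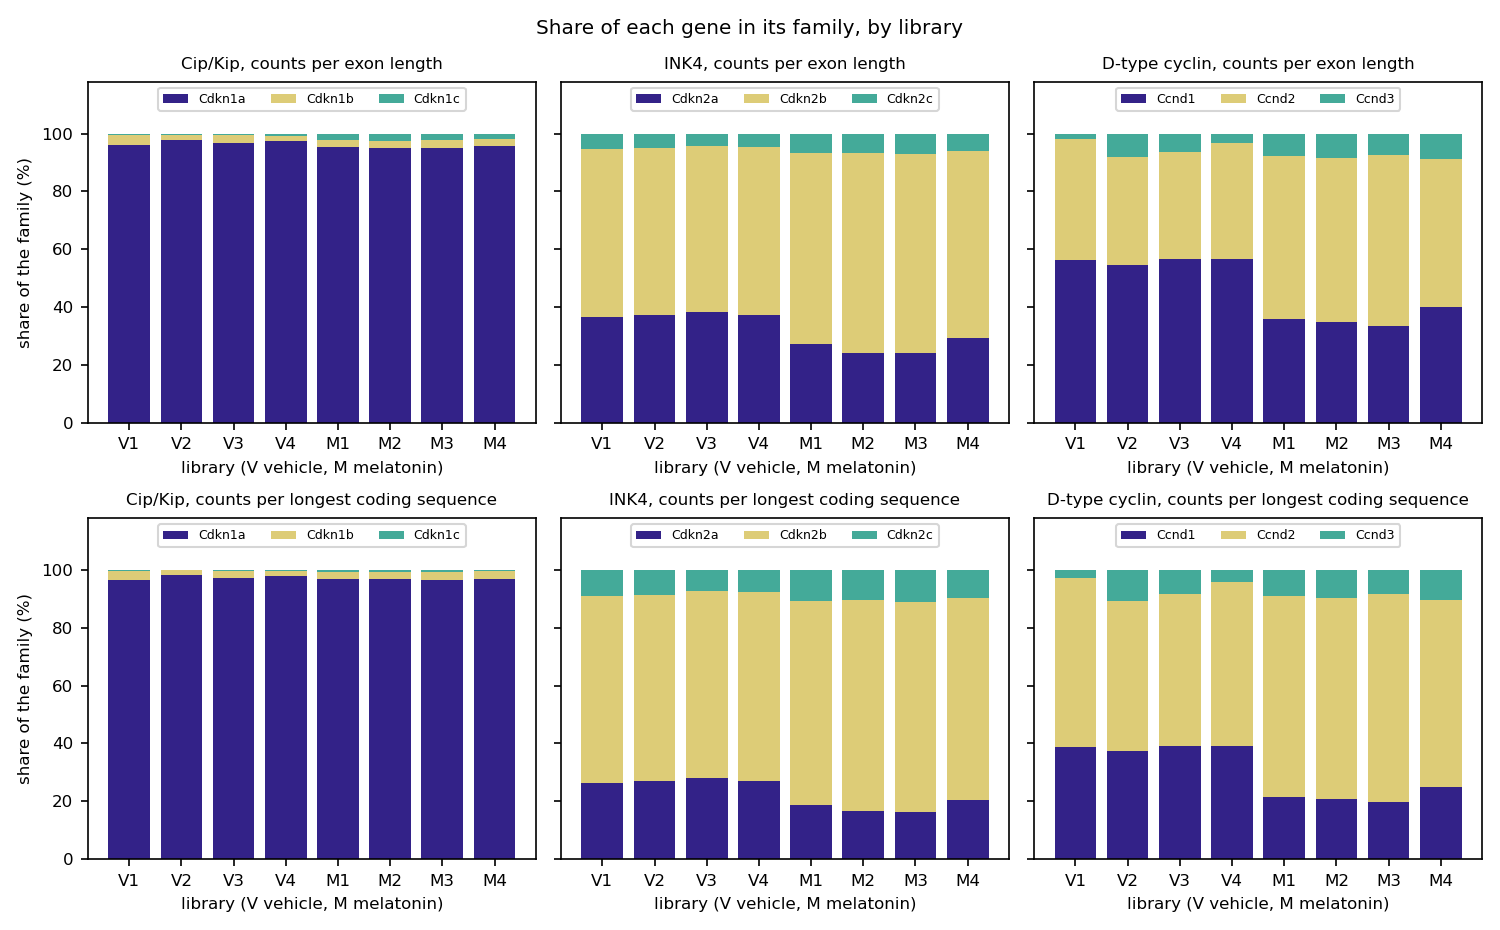
Share (%) of each gene among the genes followed of its family, in vehicle libraries V1 to V4 and melatonin libraries M1 to M4. Counts were divided by exon length (top) or by the longest coding sequence (bottom). Ccnd1 takes a smaller share in each melatonin library (at most 40.1%) than in each vehicle library (at least 54.6%) at the top, and Cdkn1a fills nearly the whole Cip/Kip bar in all 8 libraries.

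The partners of these proteins were read from lists of genes that act around them. These lists were also chosen with earlier results of these data known. Of 26 G1 kinases, cyclin partners, retinoblastoma family and E2F genes, 5 rose and 2 fell, fewer than the 36.5% called over all genes, and the median change was 0.14 on the log2 scale. The CDK4 and CDK6 genes, whose products share the D-type cyclins, went opposite ways. Cdk4 rose from 150 ± 7.39 to 221 ± 34.4 CPM (0.56 ± 0.11, edgeR adjusted p = 0.0023), and Cdk6 fell from 28.7 ± 1.77 to 15.6 ± 1.74 CPM (-0.88 ± 0.097, edgeR adjusted p = 9.2e-05). E2f1, an activating factor released by the retinoblastoma protein, rose (0.43 ± 0.060). E2f2 (0.42 ± 0.19) and E2f3 (-0.15 ± 0.079) did not pass (edgeR adjusted p = 0.11 and 0.17), nor did E2f4 to E2f8. The phosphatase gene Cdkn3 rose (0.73 ± 0.21), and Cdk7, of the CDK-activating kinase, fell (-0.35 ± 0.083). Cdk2 (0.14 ± 0.19) and Rb1 (0.12 ± 0.099) did not pass (edgeR adjusted p = 0.62 and 0.38). The count of higher genes fell to 2 without vehicle replicate 1 or 3 and to 3 without vehicle replicate 4 or melatonin replicate 2, and it was 11 with library totals, where Cdk7 lost its call (edgeR adjusted p = 0.090). Cdkn3 lost its call without vehicle replicate 1 or 3 or melatonin replicate 2 (edgeR adjusted p = 0.065, 0.061 and 0.057).

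Among 24 regulators of p53, 6 rose and 1 fell (median 0.06), again a smaller share than the 36.5% of all genes. Trp53 itself, the p53 gene, went from 170 ± 7.74 to 159 ± 19.2 CPM and did not pass (-0.10 ± 0.090, edgeR adjusted p = 0.44). Mdm4, which encodes the partner of Mdm2 in restraining p53, fell from 45.1 ± 2.49 to 33.3 ± 6.06 CPM (-0.44 ± 0.13, edgeR adjusted p = 0.021). Ppm1d, the gene of a phosphatase that dampens p53 signalling, rose (0.61 ± 0.087), as did Nat10 (0.41 ± 0.077) and the ubiquitin ligase gene Rfwd3 (0.26 ± 0.068). Mdm4 lost its call without vehicle replicate 1 (edgeR adjusted p = 0.061) and with library totals (edgeR adjusted p = 0.12), and without melatonin replicate 4 the count of lower genes was 3.

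Of 40 other p53 target genes, 10 rose and 6 fell, and their median was -0.00091, beside 0.01 over all genes. The sestrin gene Sesn1 (0.78 ± 0.071), the death gene Bbc3, which encodes PUMA (0.52 ± 0.072), and the ferrireductase gene Steap3 (1.18 ± 0.16) rose. The polo-like kinase gene Plk2 (-0.77 ± 0.062), the death receptor gene Fas (-0.60 ± 0.069) and the phosphatase gene Ptp4a3 (-0.38 ± 0.066) fell, in the same direction as Cdkn1a and Mdm2. The share of list genes called, 16 of 40, stood beside 36.5% of all genes.

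Genes for the turnover of cyclin D and the inhibitors (20 of 21 tested) had 6 members higher and 3 lower, median 0.05, beside 18.1% higher and 18.5% lower over all genes. Fbxo31, the gene of an F-box protein that targets cyclin D1 (0.60 ± 0.074), rose, as did Dtl, whose product directs p21 to degradation on PCNA (0.76 ± 0.10), and Pcna itself (0.45 ± 0.068). The cullin ligase genes Fbxw8 (-0.33 ± 0.061), Ddb1 (-0.27 ± 0.061) and Cul4a (-0.39 ± 0.11), fell. With library totals the counts were 10 higher and 1 lower, and Ddb1 and Cul4a were not called (edgeR adjusted p = 0.15 and 0.096).

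Of 36 tested regulators of transcription at the inhibitor loci, 13 rose and 3 fell, median 0.12, beside 18.1% and 18.5% of all genes. The Id genes, targets of BMP signalling whose products block E-proteins, were led by Id1, which rose from 31.6 ± 1.83 to 80.7 ± 12.2 CPM (1.35 ± 0.10), and Id4, which rose from 7.31 ± 0.716 to 22.3 ± 3.43 CPM (1.61 ± 0.13), while Id2 (0.23 ± 0.10) and Id3 (0.14 ± 0.12) did not pass (edgeR adjusted p = 0.11 and 0.42). Polycomb genes, whose complexes repress the Cdkn2a and Cdkn2b locus, were among those that rose, with Cbx2 at 0.78 ± 0.11. The TGF-beta mediators Smad3 (-0.35 ± 0.057) and Smad4 (-0.21 ± 0.066) and the transcription factor gene Myc (-0.47 ± 0.14) fell. Smad2, another TGF-beta mediator, did not pass (-0.04 ± 0.065, edgeR adjusted p = 0.67). Myc lost its call without melatonin replicate 1 or 3 and with library totals (edgeR adjusted p = 0.055, 0.065 and 0.087), the count of lower genes was 1 without melatonin replicate 1 and with library totals, and Smad4 lost its call without melatonin replicate 1 or 2 or vehicle replicate 1, 3 or 4 (edgeR adjusted p = 0.057 to 0.092) and with library totals (edgeR adjusted p = 0.56).

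Of 30 markers of S to M phase, 19 rose, beside 18.1% of all genes, and 0 fell by edgeR, beside 18.5% (0 also at an unadjusted p under 0.05 and by DESeq2 and limma-voom), with a median of 0.37. The helicase genes Mcm2 (0.61 ± 0.065) and Mcm7 (0.65 ± 0.070) and the kinase gene Pkmyt1 (0.73 ± 0.092) had the smallest p. Mki67, the proliferation marker, was at 17.7 ± 4.22 CPM with vehicle and 21.1 ± 5.17 CPM with melatonin and did not pass (0.25 ± 0.21, edgeR adjusted p = 0.40).

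**Figure D4:**
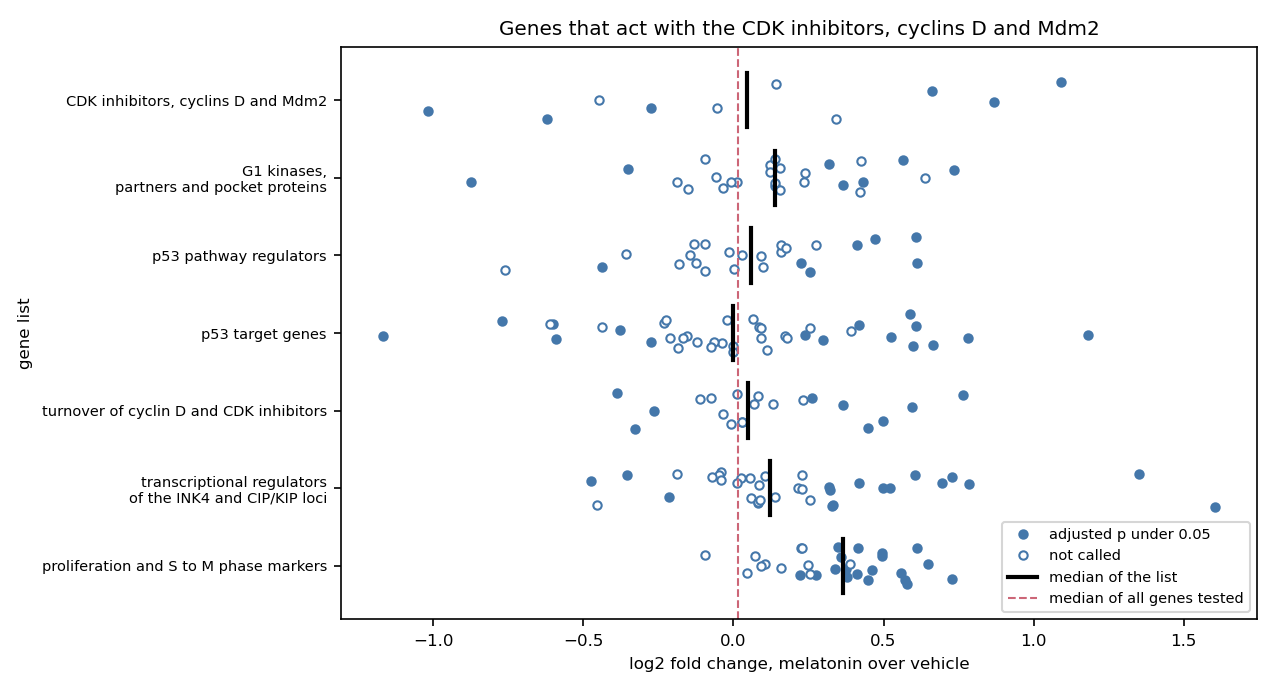
Log2 fold change of each tested gene, by list (filled where the edgeR adjusted p was under 0.05), with the median of each list (black) and of all genes tested (dashed, 0.01). The median of the S to M phase markers lies at 0.37, and those of the other lists lie between -0.00091 and 0.14.

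For each gene, the 2 genes closest in pattern were found by the root mean square difference of log2 CPM, centred over the 8 libraries, among 16379 genes. Cdkn1a was closest to Nfil3 (0.0176) and Bmp6 (0.0277), Cdkn1c to Klf15 (0.0797) and Slc16a9 (0.107), Cdkn2b to Coq9 (0.0243) and Hacd2 (0.0331), and Cdkn2c to Nsdhl (0.0591) and Acsl3 (0.0616). Ccnd1 was closest to Emp2 (0.0741) and Pdgfrl (0.0811), Ccnd2 to Mbtps1 (0.0222) and Mfn2 (0.0320), Mdm2 to Pdcd10 (0.0281) and Nrg1 (0.0346), and Cdkn2a to Rpl35a-ps3 (0.0526) and Galk2 (0.0540). For the genes with split vehicle libraries the closest were farther off, at 0.151 (Apobec3) and 0.169 (Gm3512) for Cdkn1b and at 0.293 (Gm16124) and 0.348 (Gm45242) for Ccnd3. Gm3512, Gm16124 and Gm45242 were scarce, at 8 to 23, 6 to 31 and 12 to 33 counts per library, where counting error is large. Apobec3 was at 27.2, 17.1, 24.6 and 18.01 CPM in vehicle replicates 1 to 4, with replicates 1 and 3 high as for Cdkn1b, and at 13.4 to 17.5 CPM with melatonin.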

How the data were processed

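RNA-seq of 4 vehicle and 4 melatonin libraries was available as whole-number counts per Ensembl gene, which the authors deposited in 1 table without normalization. Trimmomatic 0.36, HISAT2 2.0, StringTie 1.3.3b and the build mm10 are named in the submitters' processing notes; the use of strand is not given in the sources used here. Symbols and exon lengths came from GENCODE M21, which held 20720 of the 20781 gene IDs. Genes of low count were removed with filterByExpr (4216 genes), libraries were scaled with TMM, and melatonin was compared with vehicle by edgeR 4.0.16 (R 4.3.3, robust quasi-likelihood test, 2-sided, adjusted over 16565 genes). A standard error is the size of the log2 fold change over the square root of F. DESeq2 1.42.0, limma-voom (limma 3.58.1) and 15 other alternatives were run. The test was tested on simulated data: with 100 genes changed per size among 16565, it recovered 25% at 1.5-fold and 61% at 2-fold, with 2 false calls. The simulation changed far fewer genes than the 36.5% called here. An adjusted p depends on that share, so these recoveries do not measure how many changes the comparison missed. Totals were 35584931 to 52401153 counts per library. Counting error was not compared with the spread between libraries gene by gene, and the Poisson interval covers counting error only.

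The 10 genes and all lists were chosen with earlier results of these data known. All 10 were named, as were up to 3 higher and 3 lower genes of smallest p per list, Trp53, Mdm4, Cdk4, Cdk6, Cdk2, Rb1 and Mki67, and the 2 genes most alike in pattern to each of the 10 (at least 10 counts on average). Other genes named in passing were chosen for sharing exons, as cell type markers or as relatives of a named gene. Replicates of a group differed by more than sampling noise (chi-square per gene of 20.7 to 65.1), so each counted as 1 sample.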

Additional observations from a re-analysis of the deposited data

Results flagged for a closer look

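In 9 of 112 sets of 4 libraries (each of the 10, the named genes of the lists, the genes sharing exons and the family shares, in each group), 1 library lay far from the other 3 by Dixon's gap test, where chance alone gives about 1 in 20. Among the 10 genes this held for Mdm2 only, whose vehicle replicate 4 was at 107 CPM beside 113.9 to 114.2 in the other vehicle libraries, the nearest vehicle library to the melatonin group.

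Melatonin replicate 4 stood apart for 3 other genes, the list genes Dtl and Pcna and the exon-sharing Bysl: Dtl at 7.03 CPM beside 7.80 to 7.90, Pcna at 88.9 CPM beside 76.6 to 78.7, and Bysl at 43.6 CPM beside 38.4 to 39.1. Melatonin replicate 2 was high for Cdk2, at 19.8 CPM beside 13.1 to 13.9, and melatonin replicate 3 for Smad4, at 62.8 CPM beside 55.6 to 56.5. In the vehicle group, replicate 1 was high for Mdm4, at 48.8 CPM beside 43.7 to 44.2. Vehicle replicate 3 was low for Dtl, at 3.95 CPM beside 4.69 to 4.70, and for Rb1, at 13.6 CPM beside 16.4 to 16.9.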

How the results depend on the processing

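Over 17 alternatives to each of the 10 genes, 163 values of the log2 fold change kept their direction and call. Mdm2 lost its call with library totals alone. Cdkn1b without vehicle replicate 2, Ccnd2 with library totals and Ccnd2 without melatonin replicate 4 gained one. Cdkn2a, never called, changed sign with library totals (0.10), without melatonin replicate 2 (0.0061) and without melatonin replicate 3 (0.034), as did Trp53 with library totals (0.060) and Cdk2 without melatonin replicate 2 (-0.016). With 1 library left out, Cdkn2a ran from -0.16 to 0.034 and Cdk2 from -0.016 to 0.31. Over all genes, 6054 were called, 3865 at an adjusted p under 0.01, and 5098 to 6566 with 1 library left out. At that stricter level the G1 list had 2 genes higher and the p53 regulators 2 higher and 0 lower.

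The replicate numbers did not pair the libraries: deviations of same-numbered libraries from their group means correlated at -0.046 to 0.035, within the range of any vehicle and melatonin pair (-0.12 to 0.17). With the number as a replicate block, 4942 genes were called and the same 6 of the 10 (Mdm2 at an edgeR adjusted p of 0.042), with 3 genes higher in the G1 list and 2 among p53 regulators, and Rfwd3 and Smad4 lost their calls (edgeR adjusted p = 0.064 and 0.084). Of 36 mean shares within a family recomputed without exon length or with coding length, 28 moved by more than 1 SD. The depth limits Cdkn1c most. A missed call is no sign of an equal level. How many changes were missed is not known, since the simulation changed far fewer genes than were called.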
